A study of Mus musculus with 12 samples.

Results

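The effect of CHIR99021 on lymphoma cells without a B cell receptor (BCR) was read from 6 of the 12 arrays of the series: the 3 arrays titled BCR-negative and treated with CHIR99021, and the 3 titled BCR-negative and untreated. The arrays were chosen by their titles and paired by the tumour number that each title carries (2567, 2646 and 2676), so that each tumour gave 1 treated and 1 untreated array. All cells were primary in vitro cultures of B lymphomas from l-MYC;B1-8f mice on a C57BL/6J x BALB/c background, in which a MYC transgene drives the tumour and the B1-8f allele encodes an antibody heavy chain that Cre recombinase can remove. TAT-Cre protein was used to ablate the BCR. BCR-negative cells then shared a culture with receptor-bearing cells of their tumour for 4 days, with or without CHIR99021, until sorting by flow cytometry. The dose is not given in the sources used here, and BCR-positive cells of the treated cultures were not analysed here. The other 6 arrays were untreated: 3 of BCR-positive cells sorted from the same kind of mixed culture, and 3 of BCR-independent lymphomas, each 1 clone (clones 8, 7 and 1) derived by prolonged culture of a BCR-negative tumour and mixed with BCR-positive cells. They entered the fit that estimates the spread between arrays. All 4 groups thus carried the MYC transgene and had been exposed to culture outside the animal.

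GSK3 is a serine/threonine kinase that marks beta-catenin, MYC and other proteins for breakdown and restrains glycogen synthase. The BCR signals through PI3K and AKT, and AKT inhibits GSK3 and also keeps the FOXO transcription factors, which switch on growth-arrest genes in resting B cells, out of the nucleus. CHIR99021 is an ATP-competitive inhibitor of GSK3. The comparison asks what a GSK3 inhibitor does to the transcripts of cells that have lost the receptor, at the time when, by the submitters' account, such cells were counterselected in the mixed culture.

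The deposited values are log2 signals, so a difference of 1 is a 2-fold change, and array medians lay between 3.32 and 3.44. Ighv1-72, an immunoglobulin heavy-chain variable segment used here as a check of the sort, averaged 9.62 in BCR-positive cells, 6.44 and 5.77 in untreated and treated BCR-negative cells, and 4.04 in the BCR-independent clones. That order follows the labels, and the treated and untreated BCR-negative cells differed by -0.67 (SE 0.32, limma adjusted p = 0.499 over all probe sets). Of 9 measured B cell markers, 7 were lower and 2 higher in treated than in untreated cells, 6 of them lower in all 3 tumours, with a median of -0.42. They ran from Fcrla (-1.36), the only one that passed a test, to Cd79a and Ms4a1 (CD20), at 0.04 and 0.06. Markers of other cells were measured too (12 of T and NK, 13 of myeloid, 10 of dendritic, 7 of erythroid, 12 of stromal and 8 of plasma cells), and 0 of them passed either test below. The lists' mean level per array lay between 2.94 and 3.98 for the first 5, near the array median, and between 4.88 and 5.46 for plasma cell genes, several of which B cells share. Gsk3b, which encodes a target of the drug, differed by -0.03 (SE 0.13). The drug inhibits the activity of the kinase, which transcript levels do not measure, so the arrays hold no direct check of drug action. In sorted bulk cells, a change in the share of a cell type and a change in RNA per cell cannot be told apart.

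Treatment was tested in a limma model with group and tumour as terms over all 12 arrays. The first test, called the whole-table test here, adjusted p-values over all 35556 probe sets and called 25 of them at an adjusted p under 0.05 (0.0703%), 4 higher (0.0112%) and 21 lower (0.0591%) under CHIR99021. These held 19 genes, 0.101% of the 18820 genes measured, 4 higher (0.0213%) and 15 lower (0.0797%). The second, the expressed-gene test, kept 1 probe set a gene and left out genes whose signal did not exceed the 40th percentile of the array on 3 or more arrays, which left 12961. It called 248 genes (1.91%), 138 higher (1.06%) and 110 lower (0.849%), among them all 19 of the whole-table test. The same percentile applied to all probe sets, without keeping 1 a gene or leaving out those with no single gene, called 36 probe sets that held 26 genes. Most of the 248 were thus called only where the test was also kept to 1 single-gene probe set a gene. Every one of the 248 differed in the same direction in all 3 tumours. Over all genes, 21.6% were higher and 14.8% lower in all 3. The same tumours took part in calling the 248, so their shared direction adds no support. Of the 248, 47 differed by at least 2-fold, 14 higher and 33 lower. Set against all genes measured, the 248 were 1.32%, with 0.733% for increases and 0.584% for decreases, the shares beside which the gene lists below are read. The larger decreases outnumbered the larger increases, while increases made up most of the calls. For 18 of the 19 genes and 162 of the 248, the treated and untreated arrays did not overlap, which held for 9.81% of all genes. The calls were made from these same arrays, so the lack of overlap adds no support either. Below, rose and fell are used of genes that passed the expressed-gene test, and a gene that also passed the whole-table test is said to have passed both.

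The number of calls rested on all 3 tumours. Without tumour 2567, 2646 or 2676 the whole-table test called 0, 0 and 1 probe set, and the expressed-gene test called 17, 1 and 10 genes, with fewer arrays in each fit. Unadjusted limma p-values were under 0.05 for 3856, 2249 and 3050 probe sets in those fits and for 3955 in the fit with all tumours. No change among the 19 genes moved by over 1.5 times when a tumour was left out. The 19 were called from all 3 tumours, so small movement was partly fixed by that choice and adds no support. The titles of the untreated arrays of tumours 2646 and 2676 end in an unexplained "(2)" that the treated ones lack, so within those tumours the mark and the drug cannot be told apart. With the mark as a term, 1 probe set passed the whole-table test and 32 genes the expressed-gene test, of which 14 were among the 248. Of the 19 genes, 9 passed the expressed-gene test in that fit. All 248 kept their sign with that term. Tumour 2567, whose treated and untreated titles carry no mark, took part in calling them, so its sign adds no support.

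The largest decrease among the genes that passed both tests was in Klhl24, which encodes a Kelch-like substrate adaptor of a ubiquitin ligase. Its level was 7.38, 8.14 and 7.91 in the untreated cells of tumours 2567, 2646 and 2676 and 4.39, 4.93 and 5.42 in the treated cells. Each treated array lay over 1 log2 unit below every untreated one, and the change was -2.90 (SE 0.26, limma adjusted p = 0.0186 over all probe sets). Of 25 measured Kelch-like genes Klhl24 alone was called, and their median change was -0.01. Trp53inp1, a p53-inducible gene whose protein acts in stress responses and autophagy, stood at 8.76, 9.43 and 9.15 untreated and at 5.89, 7.17 and 6.23 treated. All 3 treated arrays were again the lower ones, with a change of -2.68 (SE 0.27, adjusted p = 0.0226). Pdcd4, an inhibitor of translation initiation that growth signals remove, was nearly the same in each tumour, at 8.44, 8.32 and 8.59 untreated and 6.72, 6.70 and 6.92 treated. It changed by -1.67 (SE 0.14, adjusted p = 0.0151). Ypel3, a growth-suppressive gene, fell from 6.10, 6.57 and 6.34 to 5.16, 5.08 and 4.64, a change of -1.37 (SE 0.15, adjusted p = 0.0304). Its treated arrays also lay below all untreated ones.

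Mxd4 encodes a MAX partner that occupies the E-boxes bound by MYC and represses there. It stood at 7.32, 7.84 and 8.21 untreated and at 5.48, 5.40 and 6.38 treated, a change of -2.04 (SE 0.20, limma adjusted p = 0.0226 over all probe sets). The groups did not overlap. Mxd4 was the only called gene of 13 measured members of the MAX network, whose median change was -0.09. Mxi1 and Mxd1, relatives of Mxd4, differed by -0.63 and -0.40, and Max, their common partner, by 0.10, and none of these 3 passed. Endogenous Myc differed by -0.17 from an untreated mean of 3.32, close to the array median, and the probe set was not tested here for reading the transgene.

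H2az2, which encodes a variant histone of the H2A.Z type, went from 7.20, 7.40 and 7.83 untreated to 4.97, 5.63 and 5.99 treated. The groups lay apart by over 1 log2 unit, and the change was -1.95 (SE 0.16, limma adjusted p = 0.0151 over all probe sets). Smarca4, the BRG1 ATPase of the SWI/SNF remodelling complex, stood at 9.57, 10.16 and 9.82 untreated and 8.77, 9.28 and 9.21 treated. Its change was smaller, -0.77 (SE 0.09, adjusted p = 0.0328), and the groups still did not overlap.

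Bckdha, a subunit of the dehydrogenase that breaks down branched-chain amino acids, fell from 6.93, 6.58 and 6.60 to 5.41, 5.33 and 5.27, with little spread between tumours in either group. The change was -1.36 (SE 0.14, limma adjusted p = 0.0226 over all probe sets). Prdx3, the mitochondrial peroxidase peroxiredoxin 3, rose from 6.97, 6.88 and 6.37 to 7.73, 7.56 and 7.06. Its lowest treated array lay just above its highest untreated one, and the change was 0.71 (SE 0.08, adjusted p = 0.0328). Tspan4, a tetraspanin membrane protein, had the smallest p of all genes. It stood at 4.95, 4.64 and 4.51 untreated and at 6.16, 5.97 and 5.44 treated, a change of 1.16 (SE 0.09, adjusted p = 0.0151) with no overlap. Of 22 measured tetraspanins, Tspan4 and Tspan5 (0.66) rose and 0 fell.

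**Figure D1:**
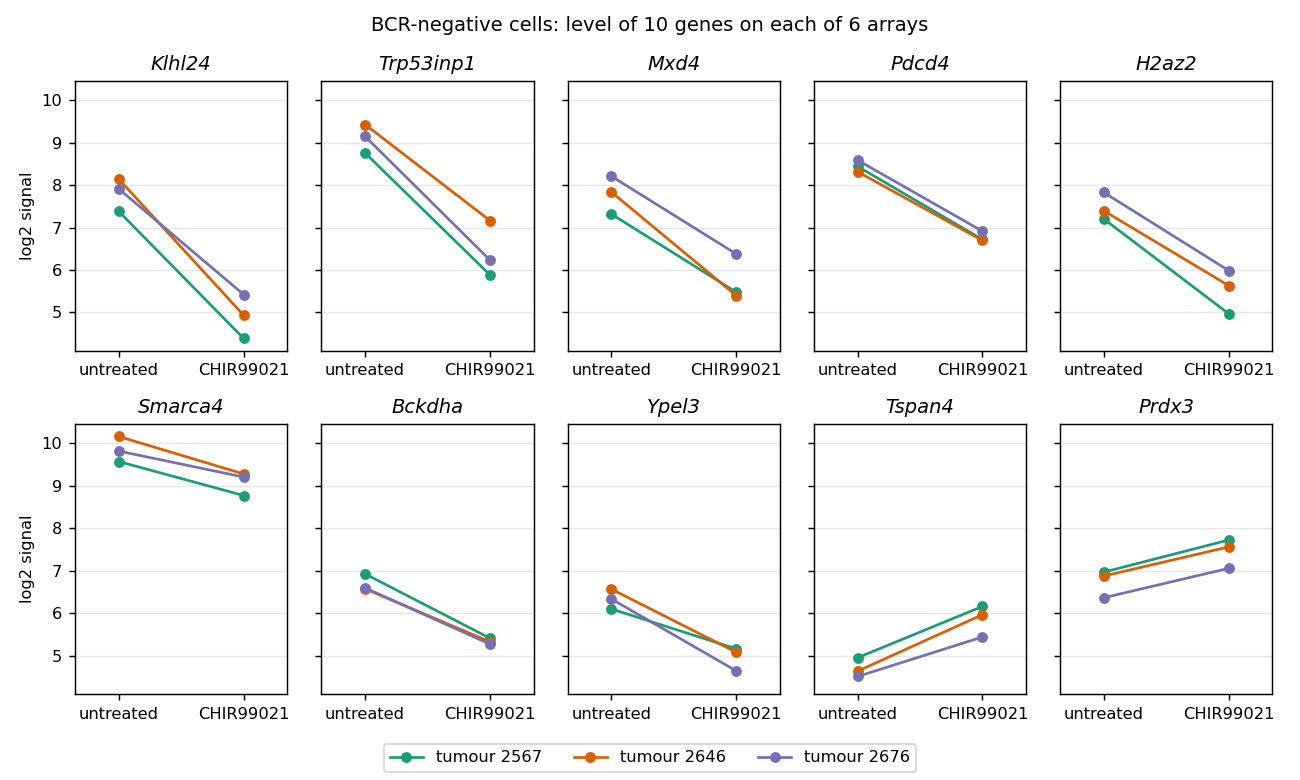
Level (log2 signal, vertical axis) of the 10 genes with the smallest p-values among those that passed the whole-table test by the rule for named genes, in untreated and CHIR99021-treated BCR-negative cells. Points are arrays, lines join the arrays of a tumour, and all 3 lines of each panel run the same way: down in 8 genes, from Klhl24 at -2.90 to Smarca4 at -0.77, and up in Tspan4 and Prdx3.

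The remaining genes that passed both tests were 7 decreases and 2 increases. Akap12 (-1.75), a scaffold for protein kinases A and C, Fbxl20 (-1.51), an F-box protein, and Pafah1b3 (-1.42), a subunit of a platelet-activating-factor acetylhydrolase, fell. Il2ra, the alpha chain of the interleukin-2 receptor (CD25), fell by 1.40. Its levels of 5.83, 6.37 and 6.89 untreated and 4.14, 4.87 and 5.87 treated overlapped between tumours but dropped within each. Tbc1d17 (-1.15), a Rab GTPase-activating protein, Tax1bp1 (-0.92), an autophagy receptor, and Irf2 (-0.67), an interferon regulatory factor, fell. The increases were Ogfod1, a ribosomal prolyl hydroxylase, at 0.57, and the predicted gene 9130401M01Rik at 0.53. Among genes that passed the expressed-gene test only, the largest decreases were in Ccng2, the unconventional cyclin G2, at -2.01 (SE 0.33, limma adjusted p = 0.0775 over all probe sets and 0.0278 among expressed genes) and in Tifa, an adaptor of TRAF6 signalling, at -1.94 (SE 0.39, adjusted p = 0.107 and 0.0422). Ccng2 stood at 4.80, 6.28 and 6.37 untreated and at 3.83, 3.80 and 3.80 treated, so that the treated arrays were nearly alike and all below the untreated ones. With the title mark as a term its change was -1.22. The largest increase was in Cd36, described below.

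The other large changes of the expressed-gene test spread over many functions. Crebrf, a regulator of CREB3 factors, averaged 5.16 ± 0.14 (SD, n = 3) untreated and 3.79 ± 0.40 treated, without overlap, a change of -1.37 (SE 0.21, limma adjusted p = 0.0268 among expressed genes). Ypel2, a relative of Ypel3, changed by -1.35, Tcp11l2 by -1.32, Mturn by -1.29, Narf by -1.27 and Pcmtd2 by -1.24. With the title mark as a term Tcp11l2 and Narf gave -0.83 and -0.62. On the other side Reep6, an endoplasmic reticulum membrane protein, rose from 6.04, 4.34 and 4.92 to 8.12, 6.34 and 5.77, higher in each tumour with overlap between tumours, a change of 1.64 (SE 0.28, adjusted p = 0.0322). Frrs1, a ferric reductase, and Zfp385a rose by 1.12 each, the receptor phosphatase Ptprj by 1.04, the lysosomal protease Ctsc (cathepsin C) by 1.04 and the lysophospholipid acyltransferase Lpcat4 by 1.04. Txnrd1, a thioredoxin reductase, rose from 6.62, 7.03 and 6.70 to 7.85, 7.83 and 7.52, without overlap, by 0.95 (SE 0.20, adjusted p = 0.0495).

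**Figure D2:**
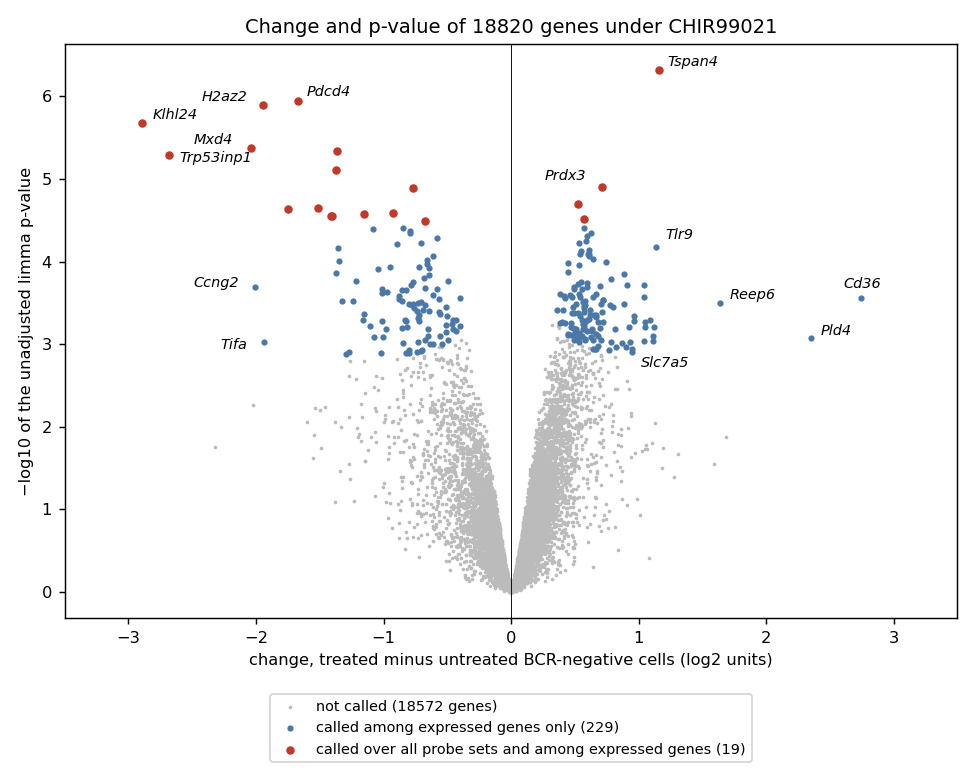
Change under CHIR99021 in BCR-negative cells (treated minus untreated, log2 units, horizontal axis) against -log10 of the unadjusted limma p (vertical axis) for 18820 genes. Red points passed both tests (19 genes), blue points the expressed-gene test alone (229) and grey points neither: the called genes reach to -2.90 on the left (Klhl24), and Cd36 (2.74) and Pld4 (2.35) are the farthest called genes on the right.

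Promoter sequence was examined for the genes that changed most, because FOXO, MYC with its MAX partners, and the TCF/LEF factors bound by beta-catenin each have a known recognition sequence. RefSeq windows (assembly GRCm38.p6, 250 bases before to 50 after the start) were found for 15 of the 20 largest decreases and 18 of the 20 largest increases of the expressed-gene test. The letters TGTTTAC (FOXO), CACGTG (E-box), CTTTGAT (TCF/LEF) and TGATGNAA (an ATF4 element) were searched on both strands; they occur in 3.65%, 7.15%, 3.73% and 3.97% of all 32851 windows of that length. The TCF/LEF letters end in TGAT, with which the ATF4 element begins, so matches to these 2 can share bases. Among the decreases 1 gene had the FOXO letters (Ypel3), 2 the E-box (Mxd4 and Crebrf) and 0 either of the others. Among the increases 0 had the FOXO letters, 2 the E-box (Tspan4 and Nagpa), 1 the TCF/LEF letters (Nagpa) and 2 the ATF4 element (Nagpa and Pld4). In Nagpa the TCF/LEF match began at -40 and the ATF4 match at -60 relative to the start, so these shared no bases. A gene with several starts was counted if any of its windows matched, so these gene counts and the shares of windows are unlike units. A match describes these letters in this window and is not evidence of binding. The upstream 250 bases are shown for the E-box pair, 1 gene that fell and 1 that rose, and for Cd36, the largest increase, with the E-box in capitals, read 5′ to 3′ on the gene's strand. They lie at chr5:34187711-34187960 on the minus strand (Mxd4), chr7:141476130-141476379 on the plus strand (Tspan4, the second of 2 starts) and chr5:17835897-17836146 on the minus strand (Cd36).
Mxd4: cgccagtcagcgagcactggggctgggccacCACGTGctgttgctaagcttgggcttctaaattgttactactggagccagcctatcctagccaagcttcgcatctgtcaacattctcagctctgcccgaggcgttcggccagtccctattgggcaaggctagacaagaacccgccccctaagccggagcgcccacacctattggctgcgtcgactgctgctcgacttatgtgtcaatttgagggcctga
Tspan4: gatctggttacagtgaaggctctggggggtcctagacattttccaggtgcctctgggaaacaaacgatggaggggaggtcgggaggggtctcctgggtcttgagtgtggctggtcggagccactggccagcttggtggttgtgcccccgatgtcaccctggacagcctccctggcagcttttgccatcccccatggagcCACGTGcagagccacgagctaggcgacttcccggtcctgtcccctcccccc
Cd36: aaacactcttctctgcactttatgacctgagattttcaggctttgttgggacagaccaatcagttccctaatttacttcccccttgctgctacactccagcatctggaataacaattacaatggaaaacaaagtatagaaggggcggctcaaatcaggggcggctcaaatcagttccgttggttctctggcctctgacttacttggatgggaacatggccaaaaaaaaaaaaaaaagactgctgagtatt

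Most FOXO targets and growth-arrest genes were lower. Like the lists that follow, this list was chosen with earlier results of these data known and was not tested as a group. It includes Klhl24 and Trp53inp1, so its counts partly restate the changes given above. Of 33 measured members, 28 were lower and 5 higher, and 23 were lower in all 3 tumours, where 14.8% of all genes were. Their median change was -0.51, against 0.01 over all genes, and it was -0.48, -0.60 and -0.51 in tumours 2567, 2646 and 2676. In the expressed-gene test 9 fell and 0 rose. Klhl24, Trp53inp1 and Pdcd4 passed both tests. The others were Ccng2, the antiproliferative genes Btg1 (-1.21) and Btg2 (-1.08), the mitophagy kinase Pink1 (-0.85), the muscle-atrophy F-box gene Fbxo32 (-0.51) and Foxo3 itself (-0.50). Foxo3 stood at 5.75, 6.03 and 5.90 untreated and at 5.27, 5.44 and 5.48 treated, without overlap. Foxo1, at -0.69 (SE 0.34), did not pass, and neither did Cdkn1b, the CDK inhibitor p27, at -1.15 (SE 0.25, limma adjusted p = 0.0531 among expressed genes). Rag2, a recombinase that FOXO1 drives in B cell precursors, differed by -2.03 with a wide spread between tumours (SE 0.55). Cited2 (0.94) and Ccng1 (0.62) were the highest members and did not pass. Trp53inp1 and Btg2 were also the only called members of 23 measured p53 response genes, whose median change was 0.05. Cdkn1a, the p53 target p21, differed by 1.59 (SE 0.61), from untreated levels of 3.13, 3.78 and 3.04 to 5.33, 6.31 and 3.09, so tumour 2676 did not share the difference.

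**Figure D3:**
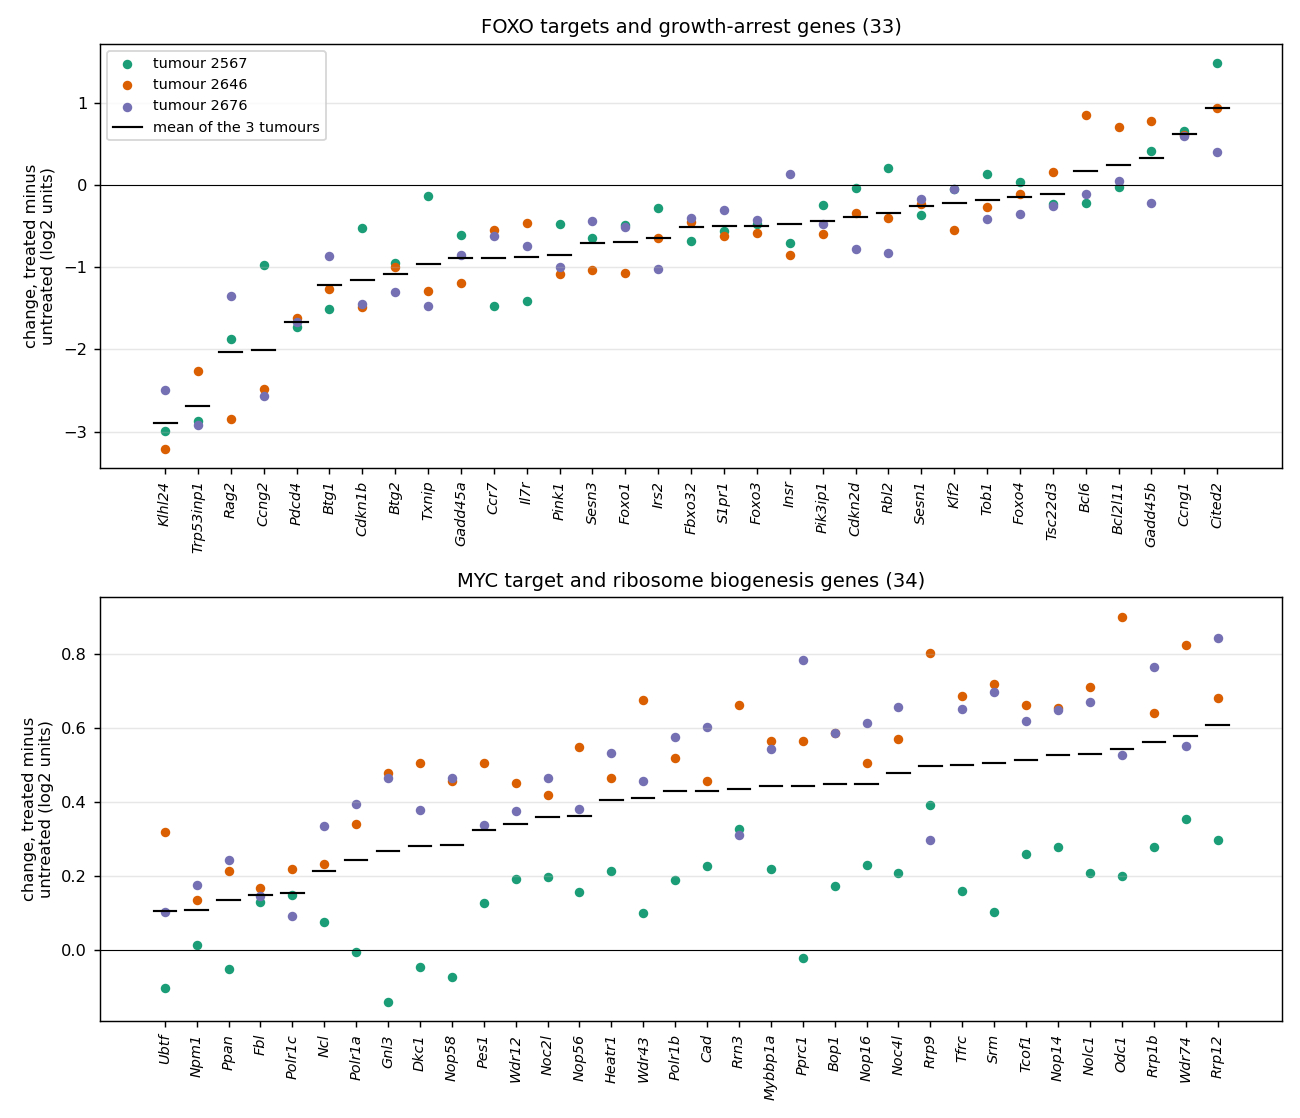
Change under CHIR99021 (treated minus untreated, log2 units) of each measured FOXO target and growth-arrest gene (upper panel, 33 genes) and each MYC target and ribosome biogenesis gene (lower panel, 34 genes), with a point for each tumour and a bar for their mean. The upper panel runs from -2.90 (Klhl24) to 0.94 (Cited2), and every mean in the lower panel is above 0 while the points of tumour 2567 lie lowest in most genes.

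Lists of ribosome biogenesis, tRNA charging and nucleotide synthesis genes shifted upward in small steps, and the first of them holds no ribosomal protein gene. All 34 measured MYC target and ribosome biogenesis genes were expressed and had a change above 0, and 27 were higher in all 3 tumours, where 21.6% of all genes were. Of the 34, 26 had an unadjusted limma p under 0.05, as did 2340 of the 18820 genes and 2232 of the 12961 expressed genes. Their median was 0.43, at 0.18, 0.53 and 0.50 in tumours 2567, 2646 and 2676. Wdr74 (0.58, SE 0.10, limma adjusted p = 0.0372 among expressed genes) and Nop14 (0.53, SE 0.10, adjusted p = 0.0391), which act in the assembly of the large and the small ribosomal subunit, rose. Wdr74 stood at 9.03, 8.39 and 8.24 untreated and at 9.39, 9.21 and 8.79 treated, an increase within each tumour with overlap between tumours. Of 36 aminoacyl-tRNA synthetase genes 30 were higher, 23 in all 3 tumours, with a median of 0.32. Hars (0.53) and Nars (0.64), for histidine and asparagine, rose. Of 24 purine and pyrimidine synthesis genes 20 were higher, with a median of 0.27, and Gart, a trifunctional purine enzyme, rose by 0.54. All 18 measured serine and folate one-carbon genes were above 0, with a median of 0.22, and Psph, the last enzyme of serine synthesis, rose by 0.68. Across these 4 lists 6 genes rose and 0 fell. With the title mark as a term the medians were 0.26, 0.28, 0.19 and 0.10.

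The amino acid exchanger of Slc7a5 (LAT1) and its partner chain Slc3a2 (CD98), which imports leucine and other large amino acids, rose in both chains. Slc7a5 stood at 9.08, 8.19 and 8.77 untreated and at 9.54, 9.59 and 9.76 treated. The treated arrays lay close together above all untreated ones, and the change was 0.95 (SE 0.20, limma adjusted p = 0.117 over all probe sets and 0.0482 among expressed genes). With the title mark as a term the change of Slc7a5 was 0.48. Slc3a2 rose from 8.75, 8.68 and 8.70 to 9.38, 9.66 and 9.32, a change of 0.74 (SE 0.11, adjusted p = 0.0618 and 0.0268) without overlap. Slc38a7, a lysosomal glutamine exporter, rose by 0.81. Of 26 measured amino acid transporters these 3 were called, and the list's median was 0.05. Of 23 integrated stress response genes, Slc3a2 was the only called member, and their median of 0.30 was 0.03 in tumour 2567 and 0.37 and 0.22 in the others, and 0.12 when the title mark was fitted. Asns and Atf3, targets of ATF4, differed by 0.87 and 1.13 and did not pass.

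Mitochondrial genes leaned upward. Of 26 TCA cycle genes 21 were higher, 17 in all 3 tumours, with a median of 0.19. Idh3a, a subunit of isocitrate dehydrogenase, rose by 0.64 (SE 0.09, limma adjusted p = 0.0268 among expressed genes), and Pcx, the pyruvate carboxylase that refills the cycle, fell by 0.88 (SE 0.15, adjusted p = 0.0322). Of 33 mitochondrial SLC25 carriers 26 were higher, with a median of 0.17, and Slc25a12, the aspartate-glutamate carrier, rose by 1.11 and Slc25a39, a glutathione carrier, by 0.46. Slc25a12 stood at 6.60, 7.51 and 6.51 untreated and at 8.09, 8.53 and 7.35 treated, an increase in each tumour with overlap between tumours. Of 34 glycolysis and hypoxia response genes, the carbonic anhydrase Car12 (1.05) rose and 0 fell. Their median of -0.09 was 0.29 in tumour 2567 against -0.33 and -0.22 in tumours 2646 and 2676, so the tumours did not share a direction, and with the title mark, which divides them the same way, as a term the median was 0.34.

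**Figure D4:**
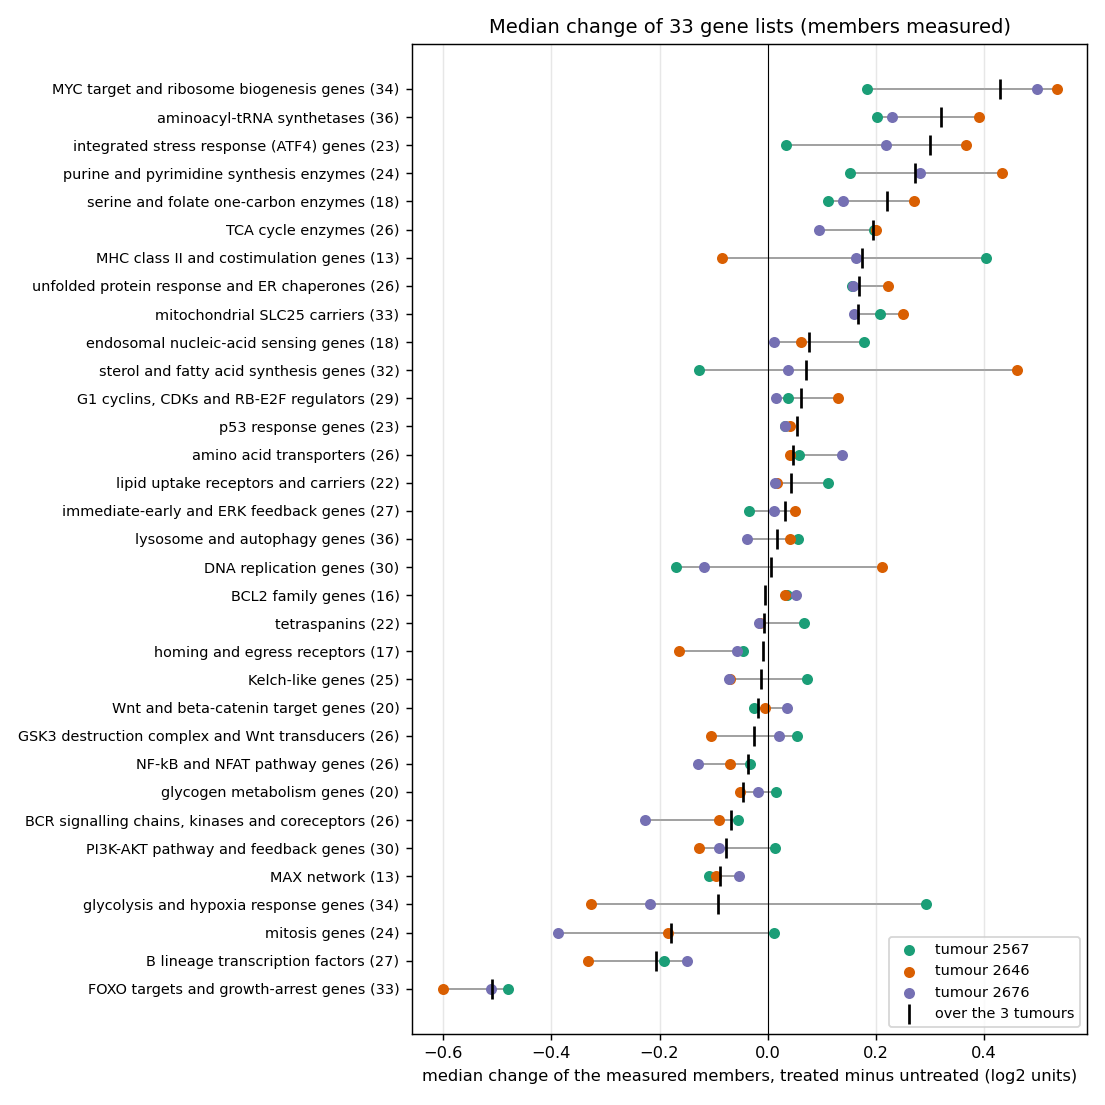
Median change under CHIR99021 (treated minus untreated, log2 units, horizontal axis) of the measured members of 33 gene lists, with their number in parentheses, in each tumour (points) and over the 3 tumours (bar). FOXO targets and growth-arrest genes lie lowest (-0.51) and MYC target and ribosome biogenesis genes highest (0.43), and the points of a list spread most for sterol and for glycolysis and hypoxia genes.

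Cd36, a scavenger receptor that takes up fatty acids and lipoproteins, had the largest increase of the called genes. Its level was 3.16, 5.30 and 4.46 in untreated cells and 6.55, 7.82 and 6.78 in treated cells. Every treated array lay above every untreated one, and the change was 2.74 (SE 0.47, limma adjusted p = 0.0804 over all probe sets and 0.0304 among expressed genes). Lrp8, a receptor of apolipoprotein E and reelin, rose by 1.05 and was the other called member of 22 lipid uptake genes, whose median was 0.04. Among 32 sterol and fatty acid synthesis genes, Fads1 (0.63) and Elovl1 (0.65), a desaturase and an elongase of fatty acids, rose and 0 fell. That list's median of 0.07 covered -0.13, 0.46 and 0.04 in the 3 tumours.

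The list of endosomal nucleic-acid sensing genes held 3 that rose, Pld4, Tlr9 and Myd88. Pld4, an endolysosomal nuclease, stood at 4.10, 5.66 and 5.23 untreated and at 7.65, 7.86 and 6.55 treated, apart in every array, with a change of 2.35 (SE 0.47, limma adjusted p = 0.105 over all probe sets and 0.0405 among expressed genes). Tlr9, the receptor of unmethylated CpG DNA, rose from 4.57, 4.68 and 4.99 to 5.93, 5.94 and 5.78, a change of 1.14 (SE 0.16, adjusted p = 0.0559 and 0.0226), also without overlap. Myd88, the adaptor of Tlr9, rose within each tumour from 5.75, 5.81 and 4.83 to 6.59, 6.87 and 5.81, with overlap between tumours, by 0.96 (SE 0.18, adjusted p = 0.0873 and 0.0365). Of the list's 18 measured members 0 fell, 14 had a change above 0 and 4 below, and the median was 0.08. Dendritic cells also use Tlr9. Of their 10 measured markers 5 were higher and 5 lower, from -0.09 (Flt3) to 0.80 (Bst2), with a median of 0.01, and 0 passed. Among 36 lysosome and autophagy genes 18 were higher and 18 lower, with a median of 0.02. The protease Ctsz (0.80) rose, and Map1lc3b (-0.80), which encodes the LC3B protein of autophagosomes, and Atg2a (-0.58), a lipid-transfer protein of their assembly, fell.

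Lists of genes near GSK3 itself had small median changes. Of 20 measured Wnt and beta-catenin targets 0 passed either test (1 at an unadjusted limma p under 0.05), and 9 were higher and 11 lower, with a median of -0.02. Their mean level per array lay between 3.95 and 4.14, and 15 of the 20 were expressed, so dim signals limit what this list can show. Axin2, the usual readout of beta-catenin, stood at 3.65, 3.48 and 3.64 untreated and at 3.56, 3.63 and 3.79 treated. The groups overlapped near the array median, and the difference was 0.07 (SE 0.08). Lgr5 differed by -1.56 with an SE of 0.57, from 4.92, 8.04 and 7.15 to 3.55, 6.05 and 5.84. Ctnnb1, which encodes beta-catenin, differed by -0.19 (SE 0.09). Of 26 genes of the destruction complex and Wnt transduction, Btrc, the F-box protein that recognises phosphorylated beta-catenin, fell by 0.68 and 0 rose. Of 20 glycogen genes 0 were called (3 at an unadjusted p under 0.05), and the median was -0.05. A gene that misses the threshold with 3 tumours may still differ by an amount these arrays cannot resolve: the median SE of a change was 0.10 over all genes.

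In the list of PI3K-AKT pathway and feedback genes 3 of 30 measured members were called. The 30 include Pdk1, a pyruvate dehydrogenase kinase outside that pathway, which is also in the glycolysis and hypoxia list and was not called here. Ppp2r5b, a regulatory subunit of the phosphatase PP2A, rose by 1.09, and Pik3ca (-0.72), the catalytic subunit p110 alpha, and Mtor (-0.72) fell. Mtor stood at 7.64, 9.28 and 9.45 untreated and at 6.67, 8.45 and 9.08 treated, a decrease in each tumour within a wide range between them. The list's median was -0.08.

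Of 27 measured B lineage transcription factors, 17 were lower and 10 higher, with a median of -0.21 (-0.19, -0.33 and -0.15 in the 3 tumours, and -0.09 without tumour 2676). Myb (-0.83), a factor of dividing progenitors, Tcf3 (-0.56), which encodes the E proteins E12 and E47, and Pou2af1 (-0.44), the B cell coactivator OBF-1, fell, and 0 rose. Tcf3 averaged 9.02 ± 0.09 (SD, n = 3) untreated and 8.46 ± 0.29 treated, without overlap. Ebf1, Irf4 and Bach2 differed by -1.21, -1.12 and -1.34 and did not pass. Of 9 measured B cell markers Fcrla, a B cell Fc receptor-like gene, fell from 7.72, 8.47 and 8.26 to 5.99, 7.05 and 7.34, without overlap (SE 0.19, limma adjusted p = 0.0226 among expressed genes). Of 26 genes of BCR signalling, the inhibitory receptor Fcgr2b rose by 0.94 and 0 fell, with a median of -0.07. Fcgr2b stood at 7.48, 8.05 and 7.05 untreated and at 8.67, 8.73 and 7.99 treated.

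In the NF-kB and NFAT list, Tifa and Nfkbia, which encodes the inhibitor IκBα, fell among 26 measured genes, and 0 rose. Nfkbia went from 6.29, 7.19 and 6.82 to 5.74, 6.07 and 5.43, without overlap, a change of -1.02 (SE 0.19), and of -0.57 with the title mark as a term. In the cell cycle lists, Ccne1, which encodes cyclin E1, rose by 0.62, and Tfdp2, a dimer partner of E2F factors, fell by 1.02, among 29 measured G1 regulators. Of 24 mitosis genes 20 were lower, with a median of -0.18 that was 0.01 in tumour 2567 and 0.10 when the title mark was fitted (-0.06 without tumour 2676), and 0 passed (5 at an unadjusted limma p under 0.05). Of 30 DNA replication genes 0 passed (7 unadjusted), with a median of 0.01 that was -0.17, 0.21 and -0.12 in tumours 2567, 2646 and 2676. It turned to -0.12 without tumour 2646, -0.10 with the title mark, -0.03 under cyclic loess and -0.04 under quantile normalization. No member passed among 26 unfolded protein response genes (median 0.17, 10 at an unadjusted p under 0.05), 16 BCL2 family genes (-0.01, 4), 27 immediate-early genes (0.03, 4), 13 MHC class II and costimulation genes (0.17, 1) and 17 homing receptors (-0.01, 3). The MHC class II median was 0.40, -0.08 and 0.16 by tumour, turned to -0.04 without tumour 2567 and was 0.49 with the title mark, and the unfolded protein response median was 0.25 without tumour 2646 and 0.36 with the mark. Cd74, which encodes the invariant chain that escorts class II molecules, differed by 1.02 (SE 0.36).

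The treated cells were also set beside untreated BCR-positive cells of the same tumours. That comparison shares the treated arrays with the one above, and untreated BCR-negative against BCR-positive shares the untreated ones, so the 3 are given side by side and not as evidence for each other. Treated BCR-negative cells differed from BCR-positive cells in 22 probe sets of the whole-table test (0.0619%) and in 104 genes of the expressed-gene test (0.802%). Untreated BCR-negative cells differed from BCR-positive cells in 0 probe sets (0%) and in 1 expressed gene (0.00772%) at an adjusted limma p under 0.05. An unadjusted limma p was under 0.05 for 1276 probe sets, fewer than the 1777.8 expected by chance. Treated cells differed from BCR-positive cells by -2.63 (SE 0.26) in Klhl24, and untreated BCR-negative cells differed from BCR-positive ones by 0.26. Trp53inp1 gave -2.18 and 0.51, Mxd4 -1.76 and 0.28, and Pdcd4 -1.60 and 0.07 in the same order. For these 4 genes the treated level was thus below that of both untreated groups. Cd36 averaged 5.47 in BCR-positive, 4.31 in untreated BCR-negative and 7.05 in treated cells, so it differed from BCR-positive cells by 1.58 (SE 0.47, adjusted p = 0.135 among expressed genes), which did not pass. Pld4 (1.67), Tlr9 (0.65) and Slc7a5 (0.90) also did not pass against BCR-positive cells. Cd74 averaged 8.46 in BCR-positive, 6.37 in untreated BCR-negative and 7.40 in treated cells, a treated level between the others, and neither difference passed either test.

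**Figure D5:**
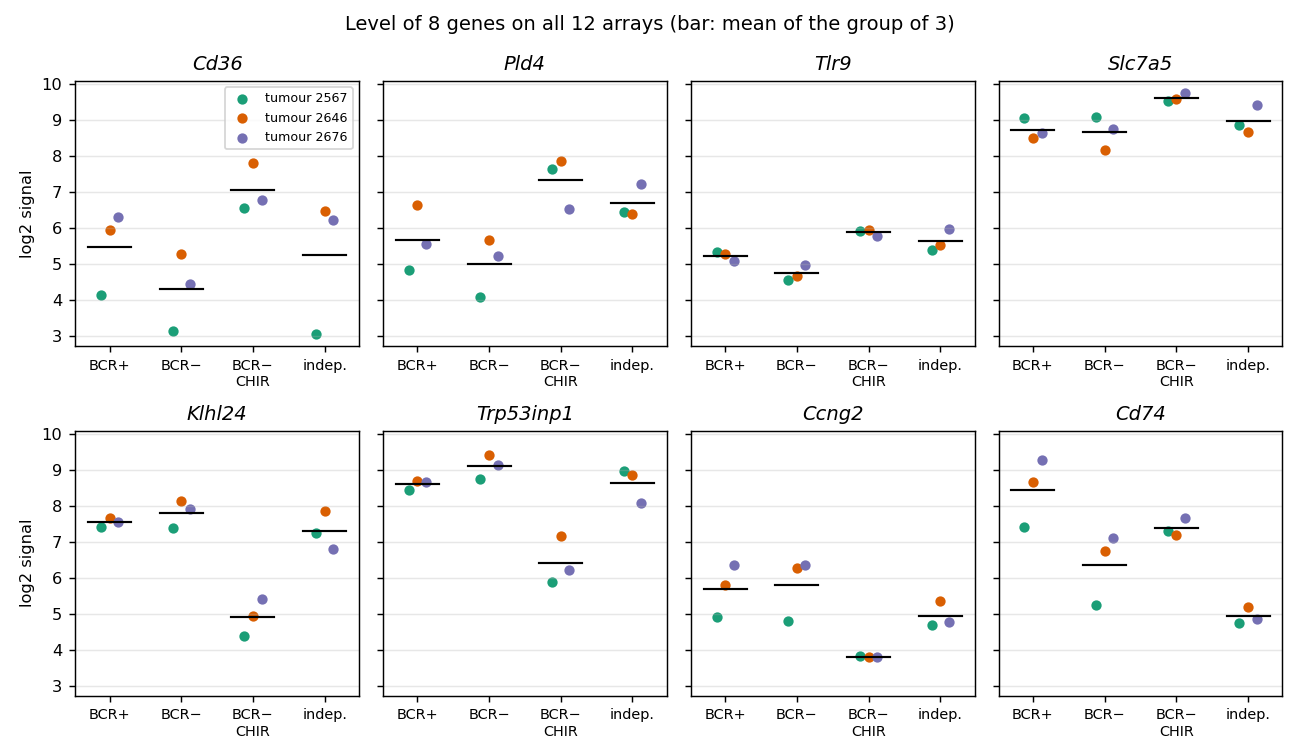
Level (log2 signal, vertical axis) of 8 genes on all 12 arrays: BCR-positive, BCR-negative untreated, BCR-negative with CHIR99021 and BCR-independent cells, with a point for each tumour and a bar for the mean of 3. Klhl24, Trp53inp1 and Ccng2 are lowest in the treated cells, Cd36, Pld4, Tlr9 and Slc7a5 have their highest group mean there, and the Cd74 mean of the treated cells lies between those of the untreated BCR-negative and BCR-positive cells.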

How the data were processed

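RNA of 12 sorted lymphoma samples was hybridised to whole-transcript mouse arrays of Affymetrix (Mouse Gene 1.1 ST). The deposited log2 signals were made by the authors with RMA, in Affymetrix Power Tools according to the processing notes of the submitters, with versions not given in the sources used here. RMA corrects background, normalizes arrays to a common distribution and compresses differences between dim probe sets. Values were used as deposited.

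The platform annotation gave 1 symbol to 21218 of the 35556 probe sets, several to 1881 and none to 12457. Symbols were updated by gene ID through RefSeq (GRCm38.p6) for 21185. Where a gene had several probe sets, the one with the highest mean over 12 arrays was taken.

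Changes were fitted with limma 3.58.1 (R 4.3.3) with group and tumour as terms over all 12 arrays, empirical Bayes moderation and Benjamini-Hochberg adjustment, called at 0.05. The tumour number is the pairing in the labels. Treated and untreated deviations correlated at 0.522, 0.616 and 0.632 within a tumour, and at -0.407 to -0.191 across tumours. Each deviation was taken from its group's mean of 3 arrays. Positive values within tumours therefore make those across tumours negative on average, and the latter add nothing separate. The code was checked on simulated data. Genes named were the largest changes in each direction, the smallest 10 p-values given by array, and members of the lists. Naming from the expressed-gene test was chosen after its values were seen. The members and lists were chosen with earlier results of these data known. Precision is limited by 3 tumours a group.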

Additional observations from a re-analysis of the deposited data

How the results depend on the processing

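The main counts were 25 probe sets and 19 genes called for treated against untreated BCR-negative cells, and 22 and 0 probe sets for treated and untreated BCR-negative against BCR-positive cells, by limma. Without the replicate block, ignoring which tumour an array came from, these were 4, 3 and 11, a loss in the paired design. With the title mark as a term they were 1, 0 and 6, and with only the 2 groups compared in the fit 0, 0 and 0, with fewer residual degrees of freedom. Array weights gave 986 and 679, cyclic loess 49, 37 and 46, and quantile normalization 44, 33 and 34. A filter at the 60th percentile gave 92, 70 and 60, and 4 for untreated against BCR-positive, with fewer tests to adjust for, and one at the 40th percentile 36, 26 and 34. Only expressed genes gave 248 genes, and an intensity trend with robust moderation 12. Leaving out a tumour gave 0 to 1 probe sets, 0 to 1 genes and 0 to 0 against BCR-positive cells. Except where stated, the cause was not tested. Of 113 genes over 14 settings, 1571 of 1576 changes kept their sign. The others were small differences that passed no test: with the mark Gsk3b was 0.29 and Ms4a1 -0.0266, Cd79a was -0.0694 with array weights, and without 1 tumour Gsk3b ranged from -0.18 to 0.11 and Cd79a from -0.16 to 0.17. The mark turned the sign of 11 of 33 list medians. Dim probe sets near the array median limit what can be seen.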

Other observations

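Subunits of the endoplasmic reticulum machinery that takes in and glycosylates new proteins were higher under CHIR99021. The list was drawn up after values were seen and has no test as a group. Of 38 measured translocon, signal peptide and oligosaccharyltransferase genes, 34 were higher and 4 lower, and 24 were higher in all 3 tumours. The median change was 0.26, at 0.37, 0.28 and 0.20 in tumours 2567, 2646 and 2676. In the expressed-gene limma test 10 rose and 0 fell. Rrbp1, a ribosome-binding protein of the membrane, rose from 6.39, 6.67 and 6.20 to 7.65, 7.41 and 7.09, a change of 0.96 (SE 0.18). Sec61a1, the channel subunit, rose by 0.59, Dad1 and Rpn1, subunits of the transferase, by 0.60 and 0.57, and Magt1, another subunit, by 0.58. Magt1 was among the 14 called genes that also passed when the title mark was fitted. The ER chaperone and unfolded protein response list, which also holds Sec61b, had 0 called genes of 26, with 20 higher and a median of 0.17. With the title mark as a term both medians were 0.36. The difference between the lists was not tested.

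Autophagy receptors and genes of the ULK and WIPI-ATG2 steps, also listed after values were seen, were mostly lower. The wider list of lysosome and autophagy genes, which shares several of them, was balanced, with 18 higher and 18 lower and a median of 0.02. Of the 21 measured in the narrower list, 15 were lower, 12 of them in all 3 tumours, and 8 fell in the expressed-gene test, where 0 rose. Tax1bp1 (-0.92) passed both tests. The receptors Calcoco1 (-1.16) and Nbr1 (-0.97), the scaffold Rb1cc1 (-0.68), its partner Atg13 (-0.79) and the phosphoinositide-binding protein Wdr45 (-0.90) fell with it. Sqstm1, which encodes the receptor p62, differed by 0.19 and did not pass. The median of the list was -0.34, and it was -0.03 in tumour 2567 against -0.44 and -0.49 in tumours 2646 and 2676. A fit with the title mark gave a median of -0.20, and Calcoco1 and Nbr1 gave -0.65 and -0.60.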
